A study of Mus musculus with 8 samples.

Results

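The genes described here are the chemokines and their receptors, measured in the paws of mice with and without collagen-induced arthritis (CIA). They were chosen by name: a gene was taken when a probe set of the array was annotated with exactly 1 symbol and that symbol was a Ccl, Cxcl, Ccr or Cxcr number, or one of Ppbp, Pf4, Xcl1, Xcr1, Cx3cl1, Cx3cr1 and Ackr1, Ackr2 and Ackr3. This gave 56 genes, 36 ligands and 20 receptors, of the 19938 genes named on the array. Where a gene had several probe sets, the one with the highest mean signal was used, which concerned Ccl19 and Ccl25. Of 63 genes in the RefSeq table that meet the same name rule, 7 had no probe set with 1 symbol and were not analysed here.

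The study used male DBA1/J mice, 8 to 10 weeks of age, in 4 groups of 8 mice. Adjuvant mice were given complete Freund adjuvant at the tail base and, 3 weeks later, incomplete Freund adjuvant. CIA mice received 150 µg of chicken type II collagen in the same adjuvants, the immunisation that brings on an autoimmune arthritis, so adjuvant was common to all 4 groups. Adjuvant+MLIF and CIA+MLIF mice had the same injections and, in addition, weekly nasal MLIF (monocyte locomotion inhibitory factor, an anti-inflammatory pentapeptide). The sample labels place collection at clinical severity, 4 weeks after the booster, whereas the series text places it before the booster.

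Each group had 2 arrays, labelled biological replicates 1 and 2. Which of the 8 mice of a group went into an array is not given in the sources used here, so p-values measure the spread between these RNA samples. Whole paws were homogenised, and the label names the tissue paw articular. The cartilage and joint genes Col2a1 (9.50 to 9.93), Acan (9.57 to 10.20), Comp (11.88 to 12.14) and Prg4 (12.74 to 13.00) were above the median of the array's unannotated entries on all 8 arrays, as log2 signals. Muscle and epidermal marker genes were measured too, the latter higher in the collagen-immunised groups, as the marker lists further on show. Of 10 epidermal genes, 5 lay below that median on both arrays in adjuvant, 6 in adjuvant+MLIF, 0 in CIA and 1 in CIA+MLIF. The values are log2 signals, and a change is a difference of log2 signals between group means. Probe sets passed when the adjusted p was under 0.05 in limma, a linear model fitted across 28944 probe sets. Only 2 arrays a group limits the precision of every value.

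The arrays were not on one scale. The median of the whole table was 6.92 to 6.96 on 7 arrays and 6.50 on CIA replicate 1. The median change of all probe sets was -0.25 in CIA against adjuvant and 0.24 in CIA+MLIF against CIA, and 0.01 and -0.02 after quantile normalization, which gives every array the same distribution. The median of the unannotated entries, used here as a floor below which a level has little meaning, ran from 5.88 on CIA replicate 1 to 6.44 on CIA replicate 2. Of the 56 genes, 32 were above it on all 8 arrays, 6 on some arrays only (Ccl17, Ccr10, Ccr3, Cxcl10, Cxcl5 and Cxcr2), and 18 on none.

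Chemokines are small secreted proteins that direct the migration of leukocytes along gradients held on matrix and endothelium. They act on G protein-coupled receptors that differ by leukocyte: CXCR2 on neutrophils, CCR2 on monocytes, CXCR3 and CCR4 on T cell subsets, CCR3 on eosinophils. In inflamed joints, neutrophil attractants of the CXC family draw neutrophils into synovium and synovial fluid, and homeostatic members such as CXCL12 are made by stromal cells. Atypical receptors bind chemokines without G protein signalling and remove or transport them.

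The 2 ligands with the largest rise, Cxcl5 and Ppbp, lie in one run of chemokine genes with Pf4, Cxcl3, Cxcl15, Cxcl1 and Cxcl2, with no other protein-coding gene between them in the RefSeq gene table. The stretch before the start of transcription is shown for Ppbp, which rose, and for its neighbours Cxcl3, Cxcl1 and Cxcl2, which did not pass. Cxcl5 had no entry in the RefSeq promoter table, so Ppbp alone stands for the genes that rose. Each is 150 bases on the + strand, ending at the base before the start, from the RefSeq promoter table (GRCm38.p6): Ppbp at chr5:90768368-90768517, Cxcl3 at chr5:90785951-90786100, Cxcl1 at chr5:90891095-90891244 and Cxcl2 at chr5:90903749-90903898. Capitals mark TATAAA and the longest run of letters, 11 bases, that Cxcl1, Cxcl2 and Cxcl3 share before the start, GGGAATTTCCC, which has the form of an NF-kappaB motif. Both were searched on both strands.
Ppbp: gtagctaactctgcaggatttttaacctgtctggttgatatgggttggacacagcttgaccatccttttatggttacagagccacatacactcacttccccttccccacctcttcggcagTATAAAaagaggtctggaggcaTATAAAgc
Cxcl3: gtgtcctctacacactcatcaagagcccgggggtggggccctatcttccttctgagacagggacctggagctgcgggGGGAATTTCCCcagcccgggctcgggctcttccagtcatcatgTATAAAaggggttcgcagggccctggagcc
Cxcl1: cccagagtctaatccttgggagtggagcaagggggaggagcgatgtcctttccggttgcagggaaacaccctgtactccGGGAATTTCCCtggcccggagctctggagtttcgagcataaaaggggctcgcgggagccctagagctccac
Cxcl2: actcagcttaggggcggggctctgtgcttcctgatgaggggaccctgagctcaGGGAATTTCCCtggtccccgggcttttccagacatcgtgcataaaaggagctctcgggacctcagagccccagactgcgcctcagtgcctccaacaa
Cxcl3, Cxcl1 and Cxcl2 held GGGAATTTCCC starting 73, 71 and 97 bases before the start. Ppbp did not hold it and had TATAAA at 30 and at 8 bases. Of the 56 genes, 42 had an entry in the promoter table, which covers 250 bases before to 50 after the start, and a gene was counted when any of its windows held the letters. GGGAATTTCCC was in 3 of the 42, the 3 genes it was read from, and in 14 of all 27025 genes in the table (0.0518%). TATAAA was in 13 of 42 (31.0%) against 15.7% of all genes. These are matches of letters, not sites.

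In CIA against adjuvant, the question was what collagen arthritis adds to adjuvant alone. The neutrophil receptor Cxcr2 and the neutrophil attractants Cxcl5 and Ppbp rose by 2.32, 2.44 and 2.33. Cxcl14, Cxcr4, Ccl3, Cxcl16 and the atypical receptor Ackr1 rose by 0.55 to 0.95, and the T cell and eosinophil attractants Ccl24, Ccl17, Ccl5 and Cxcl9 fell by 0.85 to 1.31. In all, 12 of the 56 genes passed (21.4%), 8 higher and 4 lower, against 18.5% of all probe sets, of which 4.3% were higher and 14.2% lower. The share that passed is near the background. Of the 56 genes, 33 had no overlap between the 2 groups of arrays, a count that 2 arrays a group make easy to reach. In adjuvant+MLIF against adjuvant, where 0 of the 56 passed, 34 had no overlap, though the adjuvant+MLIF arrays differed less than any other pair. The share over all probe sets was not computed, so 33 cannot be read as a result about CIA. The median change over the 56 genes was -0.08, against -0.25 over all probe sets. After quantile normalization 26 passed, 20 higher and 6 lower, against 28.1% of all probe sets, and all 12 were among them. Ccl24, Ccl17, Ccl5 and Cxcl9 then changed by -1.07, -0.65, -0.69 and -0.64. These 4 falls were smaller than on the deposited values, and the 8 rises were larger. The sign of the change differed between the scalings for 23 of the 56 genes, none of them among the 12. Leaving out 1 array changed the count, among the 56 genes and among all probe sets alike, by an amount that depended on the array. The largest change in both came without CIA replicate 2, when the CIA group is the array on the lower scale alone.

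In CIA+MLIF against CIA, the question was what the peptide does in arthritic mice. Here Cxcl5 fell by 2.42, Cxcr2 fell by 2.13 and Ppbp fell by 1.55, and Cxcr4, Ccl3, Cxcl14, Ccr2 and Cxcl16 fell by 0.71 to 0.98. Ccl24, Cxcl9, Ccl17 and the atypical receptor Ackr2 were higher by 0.53 to 1.34. Again 12 of 56 passed (21.4%), 4 higher and 8 lower, against 14.7% of all probe sets, of which 11.5% were higher and 3.25% lower. The 56 genes had a median change of 0.03, against 0.24 over all probe sets. Quantile normalization gave 22, 4 higher and 18 lower, against 24.5%, and 10 of the 12 were among them, all but Ccl17 and Ackr2. Here too, leaving out 1 array changed the count among the 56 genes and among all probe sets alike. The largest change in both again came without CIA replicate 2. Both comparisons use the CIA arrays, so an opposite sign in them is not independent evidence. Below, passing refers to the deposited values unless quantile normalization is named. Each comparison's values are given side by side, by role, for the 14 genes that passed in either. The other 42 passed in neither on the deposited values.

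**Figure D1:**
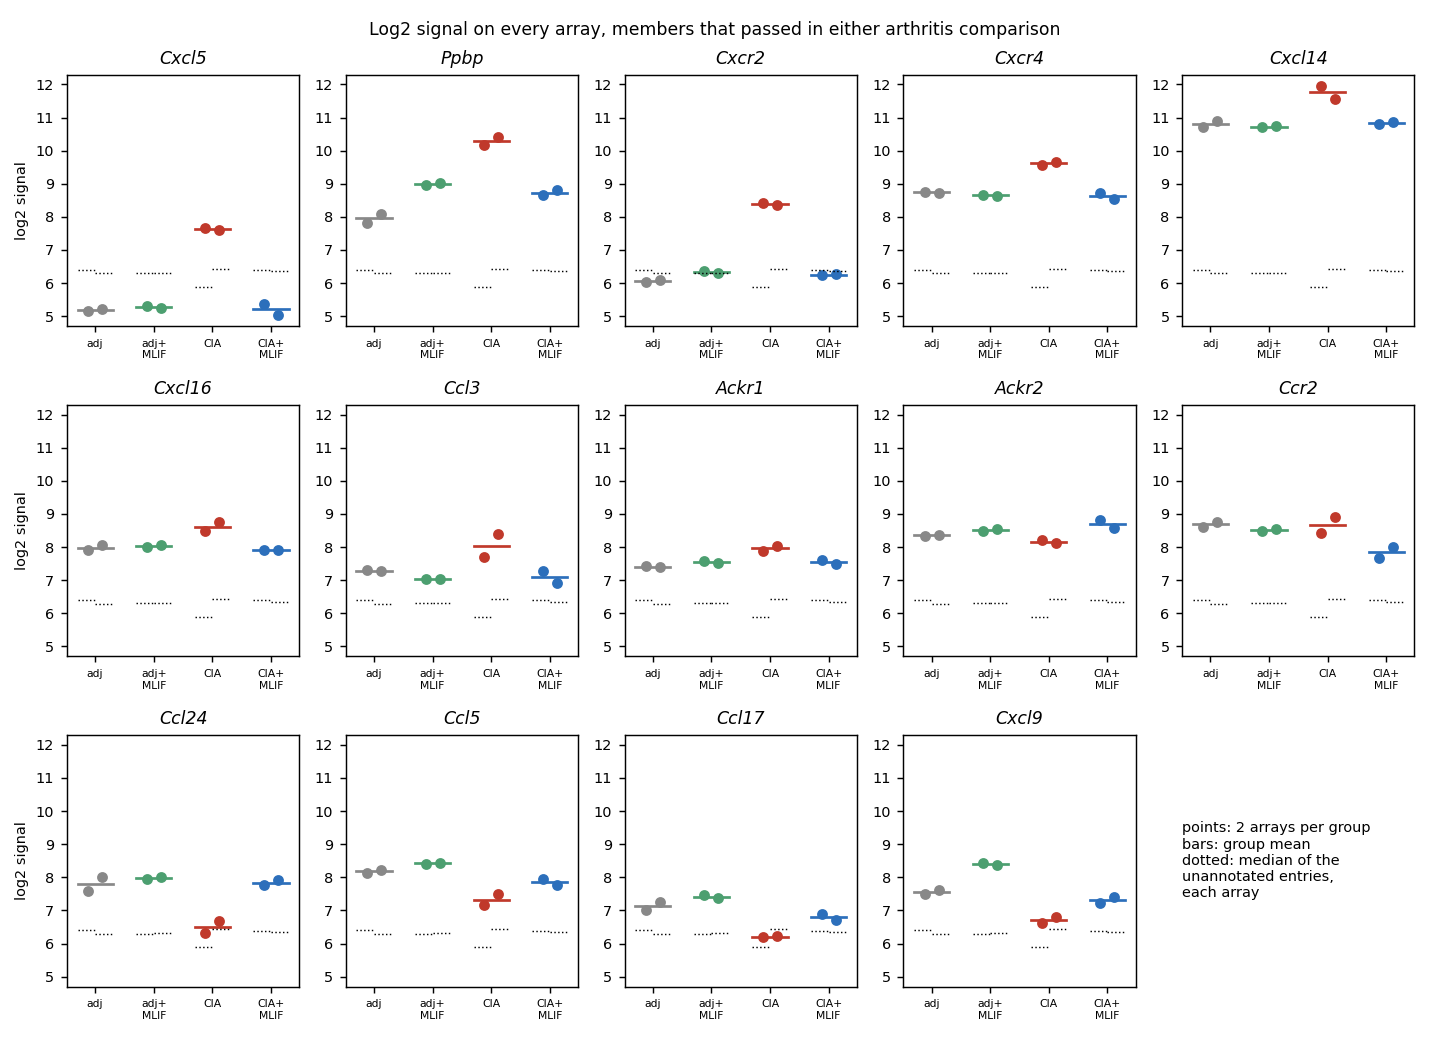
Log2 signal of the 14 genes that passed in CIA against adjuvant or in CIA+MLIF against CIA, 1 panel a gene, with each of the 8 arrays as a point, the group mean as a bar and the median of that array's unannotated entries dotted (adj, adjuvant). Cxcl5, Ppbp and Cxcr2 stand highest on both CIA arrays (Cxcl5 at 7.66 and 7.59, against 5.05 to 5.37 on the other 6 arrays), and Ccl24 stands lowest there (6.33 and 6.68).

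Among the neutrophil attractants, which bind CXCR2, 2 of 6 rose in CIA and the same 2 were lower with MLIF. Cxcl5 (made by epithelium and stroma) read 5.15 and 5.21 in adjuvant, 5.29 and 5.24 in adjuvant+MLIF, 7.66 and 7.59 in CIA, and 5.37 and 5.05 in CIA+MLIF. Only the CIA arrays were above the unannotated median, so the size of both changes is set by a low level with little meaning. The change was 2.44 (SE 0.16, adjusted p = 1.483e-05) in CIA, 5.44-fold, and -2.42 (SE 0.16, adjusted p = 3.823e-05) with MLIF. Ppbp, the platelet-stored precursor of CXCL7, read 7.81 and 8.10 in adjuvant, 8.97 and 9.03 in adjuvant+MLIF, 10.18 and 10.40 in CIA, and 8.65 and 8.82 in CIA+MLIF. The 4 groups did not overlap, and with MLIF the arthritic mice stayed above adjuvant and below adjuvant+MLIF. The rise in CIA was 2.33 (SE 0.16, adjusted p = 2.328e-05), 5.04-fold, and the change with MLIF was -1.55 (SE 0.16, adjusted p = 0.0004113).

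The other 4 attractants of this group did not pass in either comparison on the deposited values. Cxcl1 (KC), a CXCR2 ligand, read 7.43 to 7.75 on the 8 arrays, with a change of 0.15 in CIA (SE 0.15, adjusted p = 0.489). Cxcl2 changed by 0.49 in CIA (SE 0.16, adjusted p = 0.068) and by 0.89 after quantile normalization, where it passed, as it did with MLIF (-0.76). It lay below the unannotated median on all 8 arrays, as did Cxcl3 (-0.59) and Cxcl15 (-0.41, and 0.05 after quantile normalization). So along the run of neighbouring genes the changes in CIA were 2.44, 2.33, -0.09, -0.59, -0.41, 0.15 and 0.49 for Cxcl5, Ppbp, Pf4, Cxcl3, Cxcl15, Cxcl1 and Cxcl2.

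Pf4, which platelets store with Ppbp, read 7.90 and 8.12 in adjuvant, 8.49 and 8.49 in adjuvant+MLIF, 7.96 and 7.88 in CIA, and 8.24 and 8.47 in CIA+MLIF. It was higher on all 4 MLIF arrays than on the other 4, but did not pass (0.43 in CIA+MLIF against CIA, adjusted p = 0.0943). Its change in CIA was -0.09 (SE 0.16, adjusted p = 0.703; 0.04 after quantile normalization) where that of Ppbp was 2.33.

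**Figure D2:**
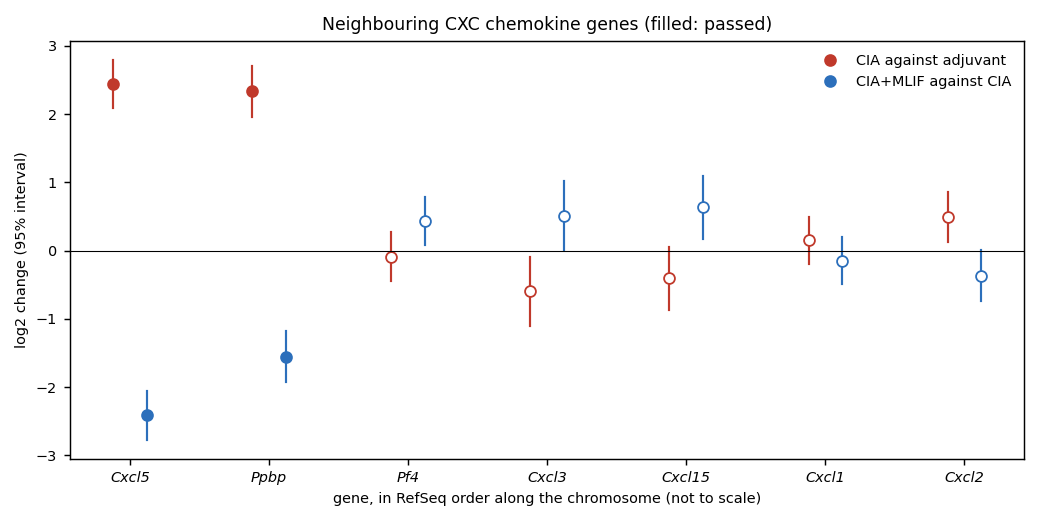
Log2 change (95% interval from the limma fit) of the 7 neighbouring CXC genes in their order along the chromosome, for CIA against adjuvant (red) and CIA+MLIF against CIA (blue); filled points passed, and the x axis gives order, not distance. Cxcl5 and Ppbp (2.44 and 2.33 in CIA) stand beside Pf4 at -0.09.

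Of the neutrophil receptors, Cxcr2 passed and its neighbour Cxcr1 did not. Cxcr2 read 6.04 and 6.10 in adjuvant, 6.37 and 6.32 in adjuvant+MLIF, 8.42 and 8.36 in CIA, and 6.25 and 6.27 in CIA+MLIF. The CIA arrays stood about 2 log2 units above every other array, whose groups lay at or near the unannotated median. The changes were 2.32 (SE 0.14, adjusted p = 9.007e-06) in CIA, 4.98-fold, and -2.13 (SE 0.14, adjusted p = 3.823e-05) with MLIF. Cxcr1 was below the unannotated median on all 8 arrays and changed by -0.12 in CIA (SE 0.21, adjusted p = 0.711), and by 0.24 after quantile normalization.

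Neutrophil marker genes moved with Cxcl5, Ppbp and Cxcr2 in the 2 comparisons that share the CIA arrays. In adjuvant+MLIF against adjuvant the list's median change was 0.69, against 1.04 for Ppbp, 0.27 for Cxcr2 and 0.09 for Cxcl5, with 0 passing. Of 17 listed markers, 13 were measured, and 13 of 13 rose in CIA and 13 of 13 fell with MLIF. Their mean signal, less the array's median, was 0.24 and 0.43 in adjuvant, 1.05 and 1.05 in adjuvant+MLIF, 2.54 and 2.44 in CIA, and 0.52 and 0.62 in CIA+MLIF. Among platelet and megakaryocyte markers, 2 of 8 measured rose in CIA, Itgb3 by 1.35 and Tubb1 by 0.58. Itgb3 alone of this list passed with MLIF and in the interaction, as lower in both. The list's mean was -0.12 and -0.13 in adjuvant, 0.07 and 0.07 in adjuvant+MLIF, 0.64 and 0.42 in CIA, and -0.01 and -0.01 in CIA+MLIF. In whole paw RNA, more cells of a type and more RNA per cell cannot be told apart, and the part of these cells in the chemokine changes was not tested.

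The epidermal list moved further. Of 10 measured genes (keratins, loricrin and others), 9 rose in CIA and 6 fell with MLIF, and its mean was -1.02 and -1.13 in adjuvant, -1.04 and -1.04 in adjuvant+MLIF, 3.80 and 3.68 in CIA, and 2.63 and 2.68 in CIA+MLIF. Skeletal muscle fell in 12 of 12 genes in CIA and rose in 12 of 12 with MLIF. The part of skin or muscle content in the changes described here was not tested.

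**Figure D3:**
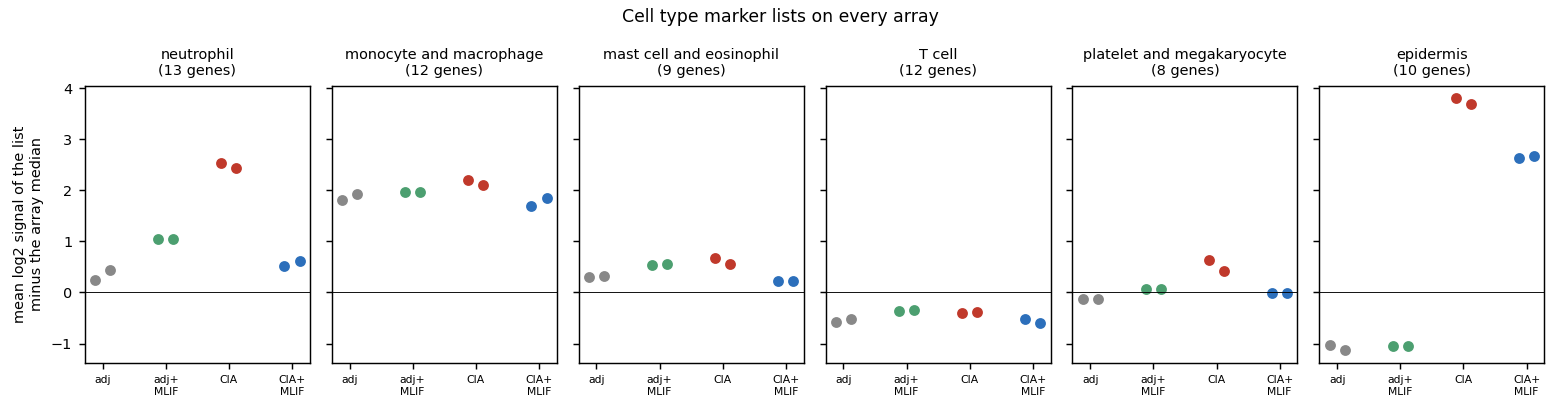
Mean log2 signal of 6 cell type marker lists on each array, less that array's median, by group (adj, adjuvant). The neutrophil list is 2.54 and 2.44 in CIA and 0.52 and 0.62 in CIA+MLIF, whereas the epidermal list is 3.80 and 3.68 in CIA and stays at 2.63 and 2.68 in CIA+MLIF.

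Of the homeostatic CXC group, 3 of 8 rose in CIA on the deposited values, Cxcl14, Cxcr4 and Cxcl16, and the same 3 were lower with MLIF. After quantile normalization Cxcl13 and Cxcr6 passed as well, higher in CIA and lower with MLIF. Cxcr4, the receptor of CXCL12 that is found on most leukocytes, read 8.74 and 8.73 in adjuvant, 8.66 and 8.64 in adjuvant+MLIF, 9.56 and 9.67 in CIA, and 8.71 and 8.55 in CIA+MLIF. The 6 arrays outside CIA lay within 8.55 to 8.74. The changes were 0.87 (SE 0.14, adjusted p = 0.00303) and -0.98 (SE 0.14, adjusted p = 0.002164). Its ligand Cxcl12 was flat, from 10.82 to 10.93 on the 8 arrays, with a change of -0.02 in CIA (SE 0.14, adjusted p = 0.913).

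Cxcl14, a chemokine made in skin and other epithelia, read 10.72 and 10.91 in adjuvant, 10.70 and 10.75 in adjuvant+MLIF, 11.96 and 11.57 in CIA, and 10.81 and 10.86 in CIA+MLIF. CIA lay above the other groups with no overlap. The changes were 0.95 (SE 0.17, adjusted p = 0.005015) and -0.93 (SE 0.17, adjusted p = 0.00714). The first did not pass without adjuvant replicate 1 (adjusted p = 0.0649), nor the second without CIA+MLIF replicate 1 (adjusted p = 0.0676).

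Cxcl16, a membrane-bound ligand of CXCR6 and scavenger of oxidised lipid, read 7.92 and 8.05 in adjuvant, 8.00 and 8.08 in adjuvant+MLIF, 8.47 and 8.77 in CIA, and 7.91 and 7.91 in CIA+MLIF. CIA was again the high group. The changes were 0.63 (SE 0.16, adjusted p = 0.02357) and -0.71 (SE 0.16, adjusted p = 0.01736). The rise did not pass when either adjuvant array or either adjuvant+MLIF array was left out (adjusted p 0.0688 to 0.179), nor the fall without either adjuvant+MLIF or either CIA+MLIF array (adjusted p 0.0536 to 0.108). Its receptor Cxcr6 and the B cell follicle receptor Cxcr5 were below the unannotated median on all 8 arrays (0.22 and -0.52). After quantile normalization Cxcr6 changed by 0.64 in CIA (adjusted p = 0.0214) and by -0.78 with MLIF (adjusted p = 0.0107). Cxcl13, the ligand of CXCR5, changed by 0.44 (SE 0.26, adjusted p = 0.249), and after quantile normalization by 0.63 (adjusted p = 0.0247) and by -0.67 with MLIF (adjusted p = 0.0221). Cxcl17 changed by -0.51 (SE 0.23, adjusted p = 0.144).

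**Figure D4:**
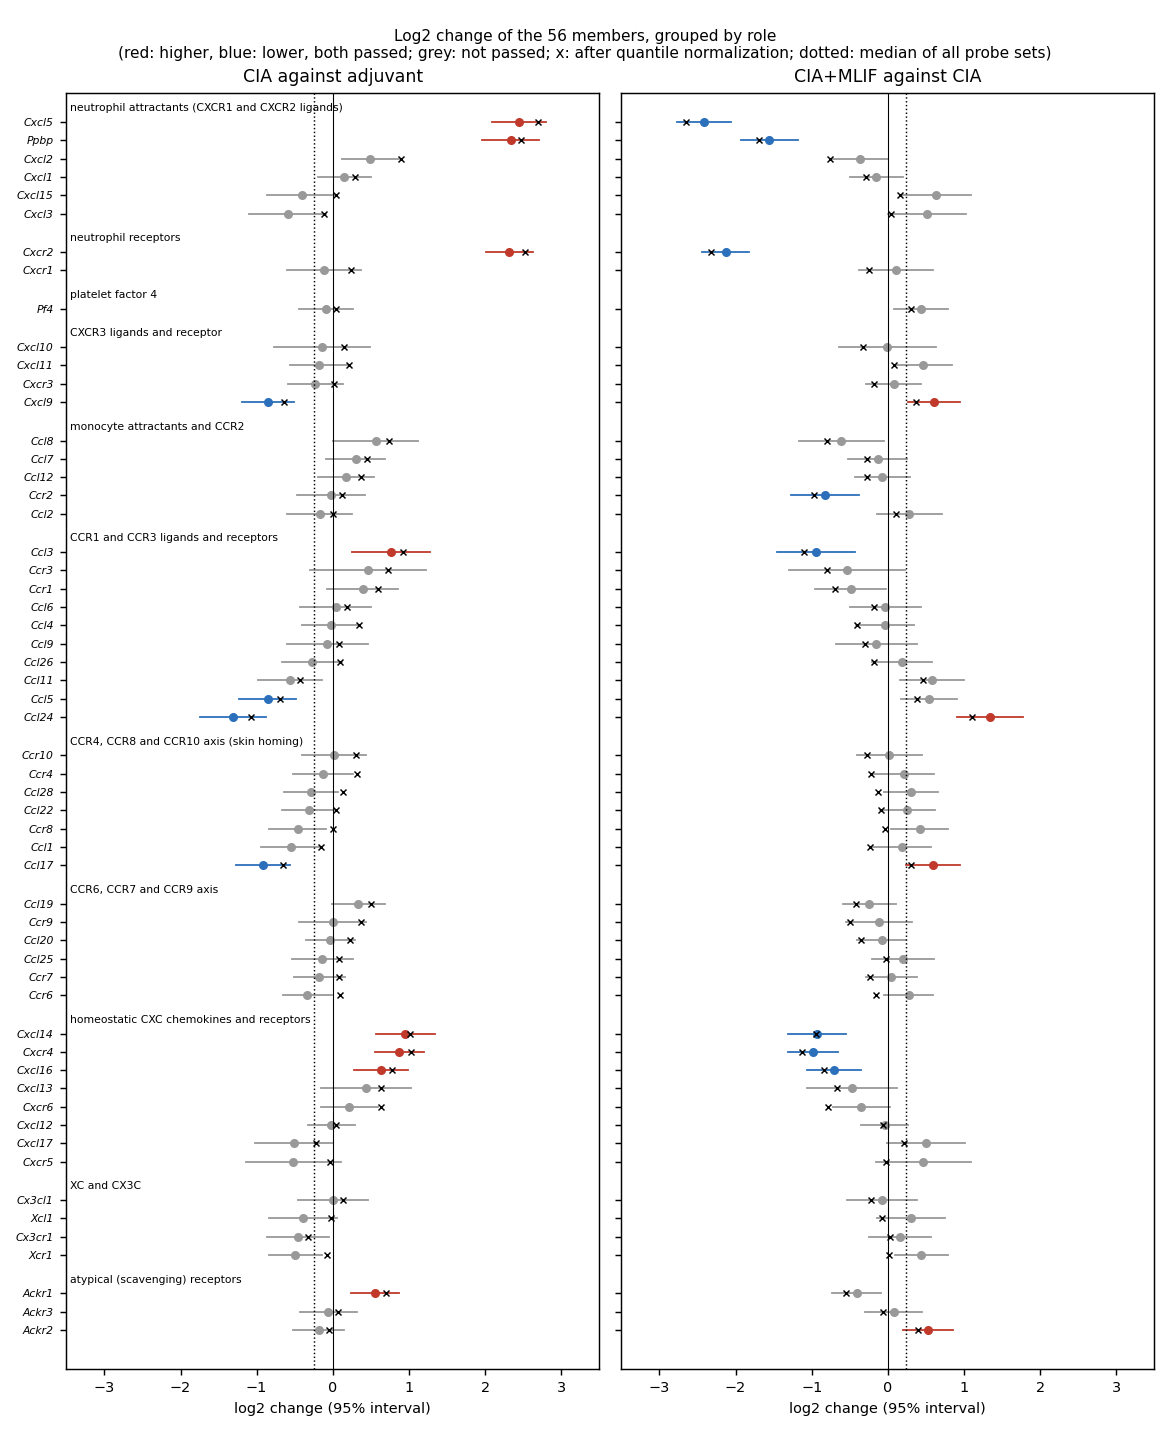
Log2 change of all 56 genes, grouped by role, in CIA against adjuvant (left) and CIA+MLIF against CIA (right), with 95% intervals from the limma fit; coloured points passed, crosses give the value after quantile normalization, and the dotted line is the median of all probe sets. The 3 changes of over 2 log2 units on the left are Cxcl5, Ppbp and Cxcr2, and on that side nearly all crosses lie to the right of their points.

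Of the CCR1 and CCR3 ligands and receptors, 3 of 10 genes passed in CIA on the deposited values, in different directions, and 6 after quantile normalization, with Ccl11, Ccr1 and Ccr3 in addition. Ccl24 (eotaxin-2), an attractant of eosinophils through CCR3, read 7.60 and 8.02 in adjuvant, 7.96 and 8.00 in adjuvant+MLIF, 6.33 and 6.68 in CIA, and 7.76 and 7.92 in CIA+MLIF. It was low on both CIA arrays alone. The changes were -1.31 (SE 0.19, adjusted p = 0.00167) and 1.34 (SE 0.19, adjusted p = 0.002076). The other eotaxin, Ccl11, read 8.94 and 9.28 in adjuvant and 8.35 and 8.75 in CIA, and did not pass (-0.56, SE 0.19, adjusted p = 0.067). After quantile normalization it passed in CIA (-0.43, adjusted p = 0.0194) and with MLIF (0.46, adjusted p = 0.0171). Ccl26 was below the unannotated median on all 8 arrays, with -0.27 (0.10 after quantile normalization).

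Their receptor Ccr3 read 6.36 and 6.38 in adjuvant, 6.46 and 6.47 in adjuvant+MLIF, 6.19 and 7.48 in CIA, and 6.22 and 6.39 in CIA+MLIF. The 2 CIA arrays lay on either side of all others, and the change of 0.46 had an SE of 0.34 (adjusted p = 0.34). After quantile normalization it was 0.73 (adjusted p = 0.0492), and -0.80 with MLIF (adjusted p = 0.0382). Of the eosinophil granule genes in the marker list, Prg2 rose by 2.47 and Epx by 1.26 in CIA. They fell by 2.18 and 1.40 with MLIF, while Ccl24 went the other way in each. Of the same list, Kit and Cpa3 passed as lower in CIA, and Kit passed as higher with MLIF, the direction of Ccl24. The list's median change in CIA was -0.28, against -0.25 over all probe sets. The list of 9 mast cell and eosinophil markers had a mean less the array median of 0.30 and 0.32 in adjuvant, 0.54 and 0.55 in adjuvant+MLIF, 0.67 and 0.56 in CIA, and 0.22 and 0.23 in CIA+MLIF. The part of these cells in the Ccl24 change was not tested.

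Ccl3, a macrophage and neutrophil product that binds CCR1, read 7.30 and 7.27 in adjuvant, 7.04 and 7.05 in adjuvant+MLIF, 7.70 and 8.39 in CIA, and 7.26 and 6.93 in CIA+MLIF. The 2 CIA arrays were the highest but stood apart from each other. The rise was 0.76 (SE 0.23, adjusted p = 0.04722) and the change with MLIF -0.95 (SE 0.23, adjusted p = 0.02438). Without CIA replicate 2 they were 0.41 (adjusted p = 0.0446) and -0.60 (adjusted p = 0.0121). The rise did not pass when any one of the adjuvant, adjuvant+MLIF or CIA+MLIF arrays was left out (adjusted p 0.0711 to 0.194), nor the fall without any one of the adjuvant or CIA+MLIF arrays (adjusted p 0.0512 to 0.145). Ccl4, its close relative, was below the unannotated median on all 8 arrays (-0.04 with MLIF, and -0.40 after quantile normalization, where it passed).

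Ccl5 (RANTES), a product of T cells and other leukocytes, read 8.13 and 8.23 in adjuvant, 8.41 and 8.44 in adjuvant+MLIF, 7.16 and 7.49 in CIA, and 7.95 and 7.78 in CIA+MLIF. The 4 groups did not overlap. It fell by 0.86 in CIA (SE 0.16, adjusted p = 0.0071), a call lost without adjuvant replicate 2 (adjusted p = 0.0761), and its change with MLIF missed the threshold (0.54, SE 0.16, adjusted p = 0.0567; 0.39 after quantile normalization, adjusted p = 0.025). Ccl6 and Ccl9, myeloid attractants, changed by 0.04 and -0.07, the latter 0.08 after quantile normalization. Their receptor Ccr1 read 6.89 and 6.88 in adjuvant and 6.98 and 7.58 in CIA (0.39, SE 0.21, adjusted p = 0.2). After quantile normalization it passed in CIA (0.59, adjusted p = 0.0101) and with MLIF (-0.69, adjusted p = 0.00575).

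Among the monocyte attractants and their receptor, 0 of 5 passed in CIA on the deposited values and 3 after quantile normalization: Ccl7 (0.45, adjusted p = 0.0128), Ccl8 (0.74, adjusted p = 0.0336) and Ccl12 (0.37, adjusted p = 0.0384). With MLIF, Ccl8 also passed after quantile normalization (-0.79, adjusted p = 0.0288). On the deposited values Ccl8 had the largest change in CIA, 0.56 (SE 0.25, adjusted p = 0.138), and its 2 adjuvant arrays, 6.63 and 7.35, differed more than those of any other of the 56 genes. Ccl2 (MCP-1) read 7.04 to 7.61 on the 8 arrays (-0.17 in CIA, 0.00 after quantile normalization), and Ccl7 and Ccl12 changed by 0.30 and 0.18. Ccr2 read 8.61 and 8.76 in adjuvant, 8.48 and 8.55 in adjuvant+MLIF, 8.42 and 8.90 in CIA, and 7.67 and 8.00 in CIA+MLIF. It was lowest on both CIA+MLIF arrays, while CIA and adjuvant overlapped. Its change with MLIF was -0.82 (SE 0.20, adjusted p = 0.02495). The call was lost without either adjuvant array or either CIA+MLIF array (adjusted p 0.0522 to 0.192). Against adjuvant+MLIF, Ccr2 in CIA+MLIF changed by -0.68 (SE 0.20, adjusted p = 0.473). The mean of the 12 measured monocyte and macrophage markers, less the array median, was 1.81 and 1.94 in adjuvant, 1.96 and 1.96 in adjuvant+MLIF, 2.21 and 2.11 in CIA, and 1.69 and 1.85 in CIA+MLIF, and 2 of 12 fell with MLIF and 1 rose. Their part in the Ccr2 change was not tested.

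Of the CXCR3 axis, which draws interferon-primed T cells, 1 of 4 genes passed in CIA. Cxcl9, an interferon-gamma-induced ligand, read 7.50 and 7.61 in adjuvant, 8.42 and 8.37 in adjuvant+MLIF, 6.61 and 6.79 in CIA, and 7.22 and 7.40 in CIA+MLIF. The 4 groups did not overlap, and within adjuvant as within CIA the MLIF arrays were the higher. The fall in CIA was 0.85 on the log2 scale, with a change of -0.85 (SE 0.15, adjusted p = 0.00463), lost without adjuvant replicate 2 (adjusted p = 0.0611). The rise with MLIF in CIA was 0.61 (SE 0.15, adjusted p = 0.02734). It did not pass without any one of the adjuvant, adjuvant+MLIF or CIA+MLIF arrays (adjusted p 0.0638 to 0.143). Cxcl10 read 5.90 and 6.88 on the CIA arrays and changed by -0.14 (SE 0.28, adjusted p = 0.73; 0.15 after quantile normalization). The receptor Cxcr3 changed by -0.23 (SE 0.16, adjusted p = 0.316; 0.01 after quantile normalization), and Cxcl11 was below the unannotated median on all 8 arrays.

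Of the CCR4, CCR8 and CCR10 axis, which guides T cells to skin, Ccl17 passed on the deposited values, 1 of 7. After quantile normalization Ccr4 (0.31, adjusted p = 0.0375) and Ccr10 also passed in CIA. On the deposited values the change of Ccr4 in CIA had the other sign, -0.13. Ccl17 (TARC), a CCR4 ligand made by dendritic cells, read 7.00 and 7.27 in adjuvant, 7.46 and 7.38 in adjuvant+MLIF, 6.18 and 6.24 in CIA, and 6.89 and 6.71 in CIA+MLIF. CIA was the low group, around the unannotated median of its 2 arrays (5.88 and 6.44). The change in CIA was -0.92 (SE 0.16, adjusted p = 0.003698), lost without adjuvant replicate 2 (adjusted p = 0.0576). With MLIF it was 0.59 (SE 0.16, adjusted p = 0.03641), and 0.31 after quantile normalization (adjusted p = 0.169). That call was also lost without any one of the adjuvant, adjuvant+MLIF or CIA+MLIF arrays (adjusted p 0.0643 to 0.218). Its neighbours Ccl22 and Cx3cl1 changed by -0.31 (0.04 after quantile normalization) and -0.00 in CIA. The other CCR4 ligand, Ccl22, was below the unannotated median on all 8 arrays, as were Ccl1, Ccl28 and the receptors Ccr4 and Ccr8. The receptor Ccr10 read 6.37 and 6.42 in adjuvant, 6.85 and 6.82 in adjuvant+MLIF, 6.16 and 6.67 in CIA, and 6.53 and 6.34 in CIA+MLIF. It did not pass on the deposited values in the unweighted limma fit of all 8 arrays. With array weights it passed in adjuvant+MLIF against adjuvant (0.44, adjusted p = 0.0125). After quantile normalization it passed in CIA (0.31, adjusted p = 0.0417) and in the interaction (-0.71, adjusted p = 0.00852).

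Of 12 measured T cell markers, Cd3d and Cd8b1 were below the unannotated median on all 8 arrays. The list's mean less the array median was -0.57 and -0.51 in adjuvant, -0.35 and -0.33 in adjuvant+MLIF, -0.40 and -0.39 in CIA, and -0.52 and -0.60 in CIA+MLIF. In CIA, Thy1 and Il7r rose and 0 of the 12 passed as lower, while Ccl5, Ccl17 and Cxcl9 fell. The list's median change in CIA was -0.20, against -0.25 over all probe sets. With MLIF, Il7r, Thy1 and Cd3g passed as lower and 0 as higher.

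Of the 6 genes of the CCR6, CCR7 and CCR9 axis, which serves lymph node and gut homing, 0 passed on the deposited values. After quantile normalization Ccl19 and Ccr9 passed in CIA, and Ccr9 (-0.50) and Ccl20 (-0.36) with MLIF. Ccl19 had the largest change, 0.34 (SE 0.15, adjusted p = 0.152; 0.50 after quantile normalization, adjusted p = 0.0381). Ccr7 changed by -0.18 (0.08 after quantile normalization), and Ccr6 and Ccr9 were below the unannotated median on all 8 arrays, at -0.33 and -0.00 (0.09 and 0.38 after quantile normalization, adjusted p = 0.0153 for Ccr9). Of the 4 XC and CX3C genes, 0 passed on the deposited values, and Cx3cr1 passed in CIA after quantile normalization. Xcr1, a receptor of cross-presenting dendritic cells, had the largest change, -0.49 (SE 0.15, adjusted p = 0.0544; -0.08 after quantile normalization), from levels below the unannotated median, as was its ligand Xcl1. Cx3cr1, the fractalkine receptor of monocytes and macrophages, read 8.21 and 8.41 in adjuvant and 7.62 and 8.08 in CIA (-0.46, SE 0.18, adjusted p = 0.108; -0.33 after quantile normalization, adjusted p = 0.0339).

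Of the 3 atypical receptors, Ackr1 and Ackr2 each passed in 1 comparison on the deposited values. Ackr1 (DARC), which carries chemokines across venular endothelium, read 7.42 and 7.39 in adjuvant, 7.57 and 7.52 in adjuvant+MLIF, 7.89 and 8.03 in CIA, and 7.60 and 7.50 in CIA+MLIF. CIA was the high group. Its rise was 0.55 (SE 0.14, adjusted p = 0.02699), lost without either adjuvant or either adjuvant+MLIF array (adjusted p 0.0923 to 0.160), and its change with MLIF was -0.41 (SE 0.14, adjusted p = 0.0852). After quantile normalization the latter passed (-0.55, adjusted p = 0.00617). Of 10 endothelial markers, Sele rose in CIA, and Sele and Plvap fell with MLIF. The mean of the endothelial list, less the array median, was 1.77 and 1.80 in adjuvant, 1.73 and 1.73 in adjuvant+MLIF, 2.39 and 2.20 in CIA, and 1.62 and 1.67 in CIA+MLIF, and its part in the Ackr1 change was not tested.

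Ackr2 (D6), which degrades inflammatory CC chemokines, read 8.34 and 8.38 in adjuvant, 8.48 and 8.54 in adjuvant+MLIF, 8.20 and 8.13 in CIA, and 8.80 and 8.59 in CIA+MLIF. CIA+MLIF was the high group and CIA the low one. The change with MLIF was 0.53 (SE 0.15, adjusted p = 0.04304). It did not pass after quantile normalization (0.40, adjusted p = 0.0992), nor without any one of the adjuvant, adjuvant+MLIF or CIA+MLIF arrays (adjusted p 0.0792 to 0.250). Ackr3, the second CXCL12 receptor, read 7.81 to 8.19 on the 8 arrays (-0.06 in CIA, 0.07 after quantile normalization).

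**Figure D5:**
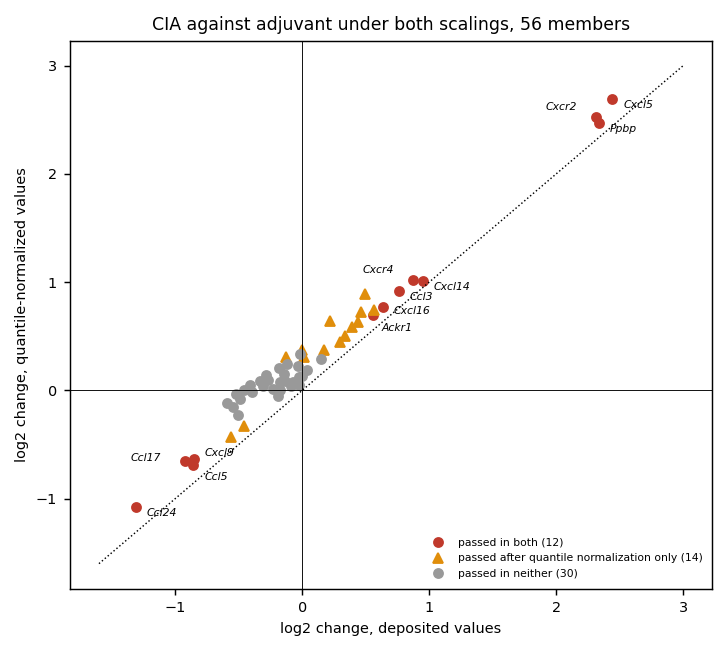
Log2 change in CIA against adjuvant of the 56 genes on the deposited values (x) and after quantile normalization (y); the dotted line marks equal values. The 12 genes that passed on the deposited values also passed after quantile normalization, 14 more passed after it only, and nearly all points lie above the line.

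In adjuvant+MLIF against adjuvant, the peptide without collagen, limma called 0 of the 56 genes and 0 of the 28944 probe sets (0%), while 5 of the 56 and 1107 of all probe sets had an unadjusted p under 0.05. The 2 largest changes were those of Ppbp, 1.04 (SE 0.16), and Cxcl9, 0.84 (SE 0.15), both with an adjusted p of 0.2282. After quantile normalization these 2 passed (adjusted p = 0.0143 for Ppbp and 0.0193 for Cxcl9), against 1.26% of all probe sets. They also passed with each array centred on its median and without either CIA array. With array weights 7 of the 56 genes passed, these 2 among them, against 1440 of all 28944 probe sets. Those weights were 7.76 for each adjuvant+MLIF array and 0.14 for each CIA array. In a fit of these 4 arrays alone 4 of the 56 passed, these 2 with Ccr10 and Cxcl10, against 676 of all probe sets. The 2 adjuvant+MLIF arrays differed less than any other pair (SD of the differences 0.0936, against 0.207 to 0.324). The neutrophil markers stood at 1.05 there against 0.24 and 0.43 in adjuvant, with 0 of 13 passing. The part of neutrophils or platelets in the Ppbp value was not tested.

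In CIA+MLIF against adjuvant+MLIF, collagen arthritis under the peptide, Cxcl9 was the 1 gene of 56 that passed, at -1.09 (SE 0.15, adjusted p = 0.01007), against 0.729% of all probe sets, of which 0.712% were higher and 0.0173% lower. It did not pass without any one of the adjuvant+MLIF or CIA+MLIF arrays. Quantile normalization gave 4, with Ccl5 (-0.53), Ccr2 (-0.66) and Cxcr3 (-0.50) in addition, against 1.43%. Cxcl5, Ppbp and Cxcr2 changed by -0.06, -0.27 and -0.09 here (SE 0.16, 0.16 and 0.14), where they had risen by over 2 log2 units without the peptide.

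The interaction tested whether the effect of MLIF differed between CIA and adjuvant mice. It passed for 5 of 56 genes (8.93%), Ccl24 higher and Ppbp, Cxcl5, Cxcr2 and Cxcr4 lower, against 7.24% of all probe sets, of which 5.62% were higher and 1.62% lower. After quantile normalization 17 passed, 1 higher and 16 lower, against 17.4%. The values were -2.60 for Ppbp (SE 0.23, adjusted p = 0.0003091), -2.50 for Cxcl5 (SE 0.22, adjusted p = 0.0002776), -2.40 for Cxcr2 (SE 0.19, adjusted p = 0.0001685), -0.89 for Cxcr4 (SE 0.20, adjusted p = 0.02903) and 1.17 for Ccl24 (SE 0.27, adjusted p = 0.03313). The count depended on which array was left out, among the 56 genes and among all probe sets alike. The Cxcr4 call was lost without any one of the 6 arrays outside CIA (adjusted p 0.0713 to 0.205), and that of Ccl24 without adjuvant replicate 2 or any one of the adjuvant+MLIF or CIA+MLIF arrays (adjusted p 0.0979 to 0.153).

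Of the genes that act around chemokines, 26 of 30 listed for receptor signalling and cell migration were measured. Vav1 (0.65), Rac2 (0.59) and Pik3r5 (0.51), which relay receptor signals to actin in leukocytes, rose in CIA, and Rgs1, a brake on chemokine receptor signalling, fell by 0.70. With MLIF, Rac2 and Pik3r5 fell by 0.84 and 0.50. Of 15 measured inducers of chemokine genes, Il1b rose by 1.41 and Il6 by 1.21 in CIA, and Il1b fell by 1.63 with MLIF. Of 12 proteoglycan and protease partners, 7 rose in CIA and 7 fell with MLIF. The largest rises were Tnfaip6 (2.86), which binds chemokines and matrix, and the proteases Mmp9 (2.61) and Mmp8 (2.15), which trim CXC chemokines. Mmp8 and Elane of this list are also in the neutrophil list. The median change of the 3 lists in CIA was -0.03, -0.24 and 1.07, against -0.25 over all probe sets.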

How the data were processed

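RNA of mouse paws (300 ng a sample, per the labels) was hybridised to Affymetrix Mouse Gene 1.0 ST arrays, 8 in all. The values deposited by the authors were taken as log2 signals from their range; no source used here gives the software or the normalization behind them. Of 35557 entries, the first 6613, which carry no annotation, were left out, and 28944 probe sets were tested: 21789 with 1 gene symbol, 1621 with several and 5534 with none in the platform annotation.

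The mean of each group was fitted to the deposited values with limma 3.58.1 (R 4.3.3) on all 8 arrays (4 residual and 4.96 prior degrees of freedom), and contrasts were adjusted by Benjamini-Hochberg over all 28944. The steps were tested on simulated data. The genes and lists were chosen with earlier results of these data known. Every gene that passed in CIA against adjuvant or CIA+MLIF against CIA was given on every array. All receptors, the largest change of each role group with no passing gene, and the 3 largest passing changes of each pathway list were named. The joint genes used to check the tissue were chosen later. Sequences came from RefSeq's promoter table; protein sequences were not used here. Alternatives covered scaling, thresholds, filters, variance, weights, array sets and a replicate block.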

Additional observations from a re-analysis of the deposited data

Results flagged for a closer look

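In 5 genes the effect of MLIF in CIA mice differed from its effect in adjuvant mice by the interaction test itself. MLIF's effect in CIA less its effect in adjuvant was -2.50 for Cxcl5, where the 2 effects were -2.42 and 0.09. Cxcl5 lay below the median of the unannotated entries in every group but CIA, so the 0.09 compares levels with little meaning, and -2.42 and -2.50 are measured against such levels. The difference of effects was -2.40 for Cxcr2, which lay below that median in adjuvant and CIA+MLIF, from -2.13 and 0.27. For Ppbp it was -2.60, and the 2 effects had opposite signs, -1.55 in CIA and 1.04 in adjuvant. It was -0.89 for Cxcr4, from -0.98 and -0.09, and 1.17 for Ccl24, from 1.34 and 0.17. These are the limma log2 changes of the 8 arrays, and the adjusted p-values ran from 0.0001685 for Cxcr2 to 0.03313 for Ccl24.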

How the results depend on the processing

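Among the genes called in any comparison, 446 of 562 alternative results kept direction and call, 116 kept the direction only and 0 reversed. Cxcl5, Ppbp, Cxcr2, Cxcr4 and Ccl24 kept both arthritis calls in every listed alternative that gave them a value (Cxcl5 has none with the lowest tercile of signals left out). Of 19 alternatives each, the call in CIA against adjuvant held in 18 for Cxcl14, 17 each for Ccl17, Ccl5 and Cxcl9, 11 each for Ackr1 and Cxcl16, and 8 for Ccl3. With the peptide in CIA it held in 17 for Cxcl14, 13 for Ccl3, 12 for Ccr2, 11 for Cxcl16, 8 for Cxcl9, 7 for Ccl17 and 6 for Ackr2. Counts of the 56 genes were 12 for arthritis without the peptide, 12 for the peptide in arthritis, 0 for the peptide in adjuvant mice, 1 for arthritis under the peptide and 5 for the interaction. In that sequence they were 26, 22, 2, 4 and 17 with quantile normalization, 20, 21, 2, 5 and 18 with that and without CIA replicate 1, and 20, 16, 2, 2 and 14 with each array centred on its median. Among all probe sets, quantile normalization called 8127, 7089, 365, 413 and 5037, and centring each array called 7968, 6984, 275, 340 and 4725. Array weights gave 6, 5, 7, 6 and 3, against 1987, 1261, 1440, 660 and 1710 of all probe sets. An adjusted p under 0.01 gave 9, 6, 0, 0 and 3, the adjuvant+MLIF arrays averaged as 1 gave 9, 8, 0, 0 and 3, and trended, robust variance gave 13, 14, 0, 1 and 8. Of all probe sets, an adjusted p under 0.01 called 2501, 1862, 0, 144 and 1087. Trended, robust variance called 5669, 4506, 4, 225 and 2527 of them. The arrays of the 2 groups alone gave 9, 7, 4 and 1 of the 56 genes, with no interaction, against 3103, 2741, 676 and 303. Leaving out 1 array gave 6 to 37, 5 to 33, 0 to 2, 0 to 4 and 3 to 20; a group left with 1 array is assumed to vary like the others. The cause of these differences was not tested. Over all settings the calls among all probe sets ran from 1987 to 17706, 1261 to 17353, 0 to 1440, 128 to 660 and 1050 to 13063 (5353, 4257, 0, 211 and 2095 as reported).

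The replicate numbers were not used as pairs in the main fit. Deviations of same-numbered arrays correlated between -0.108 and 0.390, the highest for adjuvant with CIA+MLIF. Whether same-numbered arrays were handled together is not given in the sources used here. With the replicate number as a block the counts were 13, 12, 0, 1 and 7, against 5212, 4063, 0, 200 and 2024 of all probe sets. Of the named calls, those of Ackr2 with MLIF (adjusted p = 0.0538) and Ccl3 in CIA (adjusted p = 0.0588) missed the threshold under the block. With the CIA numbers crossed, a choice made after seeing the data, the counts were 12, 11, 0, 1 and 5. All probe sets then gave 5609, 4620, 0, 212 and 2235. The 18 genes below the unannotated median on all 8 arrays give little room to see a fall.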

Other observations

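The 2 CIA arrays differed from each other most in Ccr3 (6.19 and 7.48), Cxcl10 (5.90 and 6.88), Cxcr5 (4.26 and 5.21) and Cxcl13 (6.90 and 7.81). Over the 56 genes the median difference, replicate 1 less replicate 2, was -0.35. Against that shift, Cxcl14 was higher on replicate 1 (11.96 and 11.57), and Cxcl5 (7.66 and 7.59) and Cxcr2 (8.42 and 8.36) were nearly level.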
